A study of Mus musculus with 2 samples.

Results

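The non-Hox homeobox genes that pattern the embryo were followed through the retinoic acid (RA) response of mouse embryonic stem (ES) cells with and without Utx. The 54 genes were listed by symbol: the Dlx, Lhx, Lmx1, Nkx, Pitx, Barx, Alx, Gsx, Emx, Vax, Tlx, Hmx, En and Prrx families, with the sine oculis genes Six2, Six3, Six4 and Six6, and with Phox2a, Gbx1, Otp, Shox2, Pdx1 and Mnx1. All 54 were measured, out of 22485 named genes, and they rested on 95 array features. A Utx knockout ES line was set against V6.5, a wild-type mouse ES line. Utx, encoded on the X chromosome, removes the repressive histone mark H3K27me3. The labels name V6.5 for both lines and do not say how many clones the knockout stands for. Untreated cells of either line grew on gelatin in medium with leukaemia inhibitory factor (LIF), which holds them undifferentiated. The treated cells then spent 48 h without LIF and with 100 nM RA, so a ratio holds both changes, which cannot be told apart. RNA of treated and untreated cells of 1 line shared 1 two-colour Agilent array, with 1 array for the knockout and 1 for V6.5. Each gene therefore has 1 log2 ratio per line, likely RA-treated (Cy5) over untreated (Cy3), averaged over its features. There was no replicate of either line, so neither a single ratio nor a difference between lines has a replicate check.

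Homeobox genes encode transcription factors that bind DNA through the homeodomain. In the embryo most genes of these families are switched on in narrow territories, where they set regional identity along the axes of the neural tube, face, limbs and gut. In ES cells many such genes are held silent under H3K27me3, the mark that Utx removes, and RA is a morphogen that gives neural cells a posterior identity. Genes of the forebrain, midbrain, hindbrain, spinal cord, limb bud and gut all stand in this list.

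Because both channels of an array came from 1 line, the ratios check neither the loss of Utx nor the ES cell identity of the untreated cells. The probe of Kdm6a, the gene of Utx, had -0.16 in the knockout and -0.39 in V6.5. The RA response was present on both arrays. Among 9 measured RA targets 8 rose (88.9%, against 8.93% of all genes) and 0 fell (against 7.93%). Those that rose included Cyp26a1, the RA-degrading enzyme (log2 ratios of 4.27 in the knockout and 3.54 in V6.5). The receptor Rarb rose too (2.40 in the knockout and 2.38 in V6.5). Of 10 pluripotency markers 3 fell (30%, against 7.93% of all genes) and 0 rose (against 8.93%). The lowest mean of the 3 was that of Klf4 (-2.44 in the knockout and -1.65 in V6.5). Spot intensities were not used here, so whether a gene with a ratio near 0 was expressed at all cannot be read from these values, and precision is limited by having 2 arrays. Fewer expressing cells and less RNA per cell cannot be told apart in such bulk samples.

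A group of 11 patterning genes rose with RA on both arrays and 3 fell. Those that rose were Hmx3, Six6, Pitx1, Tlx2, Barx1, Dlx4, Hmx2, Six4, Alx1, Lhx2 and Pdx1, and those that fell were Prrx1, Phox2a and Nkx6-2. Only Hmx3 and Six6 had a mean change of at least 2-fold, and 5 of the 14 had a mean below 1.5-fold. The test was limma's moderated test of the mean over both arrays, taken at an adjusted p under 0.05 (Benjamini-Hochberg, across the whole table of 22485 genes). It takes the 2 lines as 2 samples of 1 response. Its errors therefore rest on the spread between these 2 arrays, any difference between the lines included, and not between replicate cultures of a line. They also draw on a prior pooled over all genes (1 residual and 2.98 prior degrees of freedom). A moderated SE is thus not the spread of that gene alone. Without a dye swap, a dye bias at a feature is alike on both arrays, so a call cannot tell it apart from a response to RA. The 11 that rose make up 20.4% of the members, against 8.93% of all genes. The 3 that fell make up 5.56%, against 7.93% of all genes. At an unadjusted p under 0.05, 15 members were higher (27.8%, against 16.8% of all genes) and 7 lower (13% against 17.9%). Of the 14 genes, 13 rested on 1 feature each, and the one with 2 features was Prrx1. When tested against 1.5-fold with limma's treat, 0 members passed, while 196 of all genes rose (0.872%) and 97 fell (0.431%). At an unadjusted p under 0.05 in that test, 5 members were higher (9.26%, against 3.56% of all genes) and 0 lower (against 2.36%). The smallest adjusted p of a member was 0.0898, that of Six6.

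**Figure D1:**
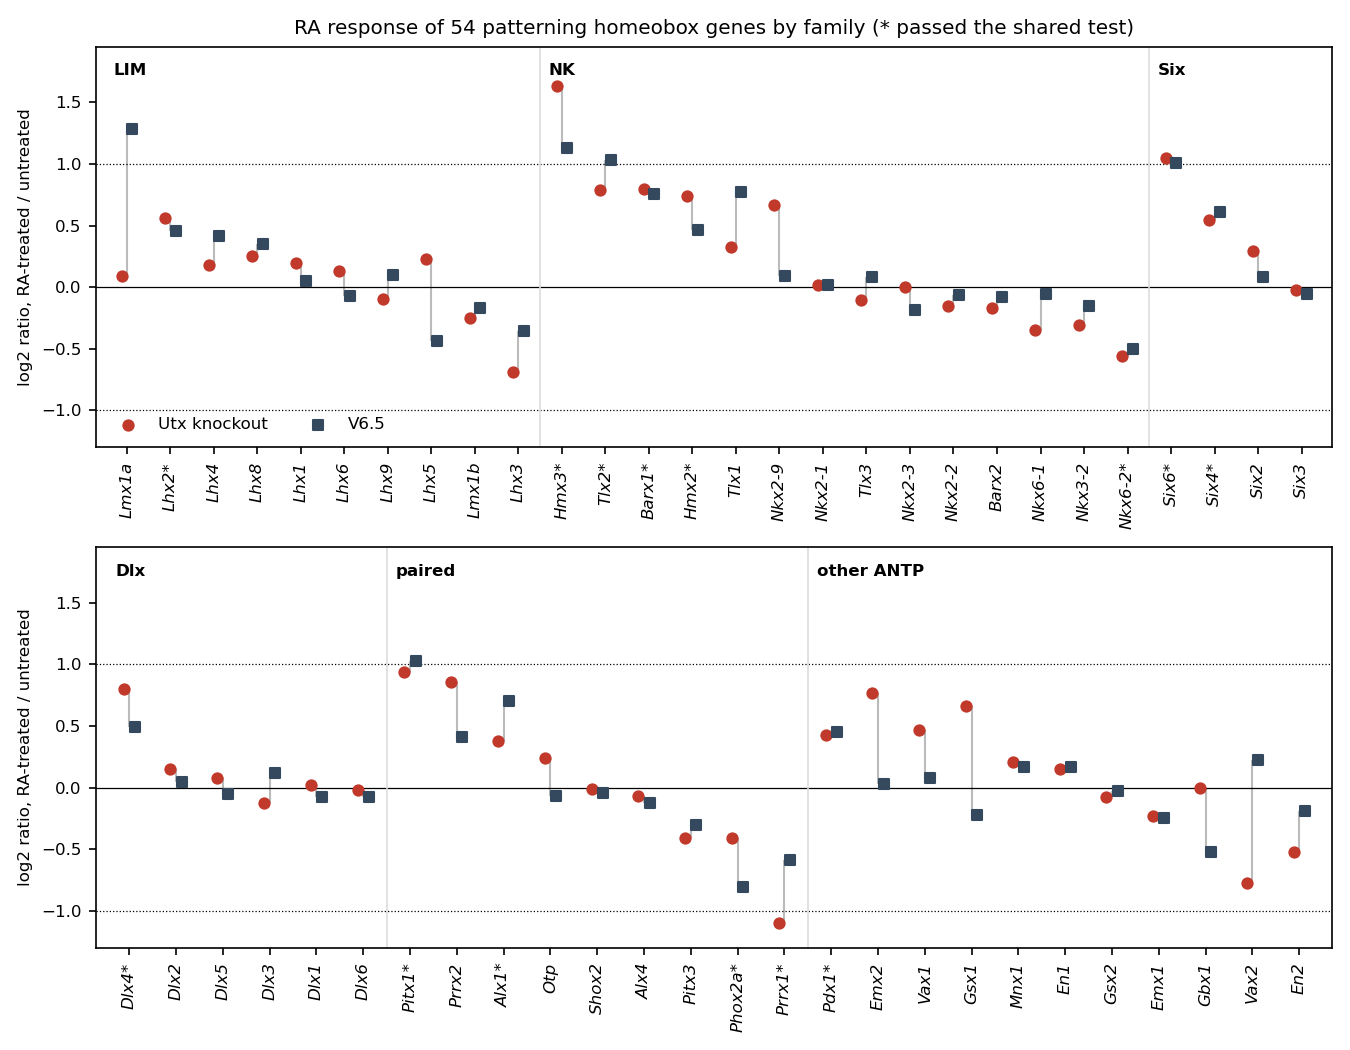
Log2 ratios, RA-treated to untreated (vertical axis), of the 54 genes, grouped by family and ordered within it by mean, with circles for the Utx knockout and squares for V6.5, 1 array each. Dotted lines mark 2-fold and stars mark the 14 genes that passed the shared test. Hmx3 stands highest in the knockout at 1.63 and Lmx1a highest in V6.5 at 1.28, and most genes lie between the dotted lines.

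In size, few of these genes passed 2-fold on either array. In the knockout 2 members were at least 2-fold higher after RA (Hmx3 and Six6), which is 3.7% of the members, against 2.92% of all genes. There 1 was at least 2-fold lower (Prrx1), or 1.85%, against 1.65% of all genes. In V6.5, 5 were at least 2-fold higher (Lmx1a, Hmx3, Tlx2, Pitx1 and Six6), or 9.26%, against 2.52% of all genes, and 0 were at least 2-fold lower, against 1.59%. At 1.5-fold, 11 members were higher in the knockout (20.4%, against 7.28% of all genes) and 3 lower (5.56% against 5.06%). In V6.5, 9 were higher by that bound (16.7% against 6.69%) and 2 lower (3.7% against 5.36%). The median log2 ratio of the members was 0.11 in the knockout and 0.04 in V6.5, beside -0.02 in the knockout and -0.02 in V6.5 for all genes. Of the 54, 22 stayed within 1.2-fold of 1 on both arrays, which is 40.7% beside 54.6% of all genes.

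Genes of the NK group held 4 of the 11 that rose and 1 of the 3 that fell, out of 14 members. That is 28.6% that rose, against 8.93% of all genes, and 7.14% that fell, against 7.93%. Hmx3, a gene of the developing inner ear and hypothalamus, was 3.09-fold higher after RA in the knockout and 2.18-fold higher in V6.5. Its mean log2 ratio was 1.38 ± 0.15 (limma's moderated SE, n = 2 arrays, adjusted p = 0.0167 in limma). Hmx2, which acts with Hmx3 in both organs, had log2 ratios of 0.74 in the knockout and 0.47 in V6.5 and also rose (limma adjusted p = 0.0338). The third gene of that family, Hmx1, is not among the 54 and rose as well (0.78 in the knockout and 0.51 in V6.5). Tlx2, needed for the enteric nervous system, had 0.79 in the knockout and 1.03 in V6.5 and rose (limma adjusted p = 0.0167). Barx1, a gene of stomach and jaw mesenchyme, had 0.79 in the knockout and 0.76 in V6.5 and rose (limma adjusted p = 0.0148). Both values of Barx1 lie within 0.04 of each other on the log2 scale, so this gene had nearly the same ratio on the knockout array as on the V6.5 array.

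Nkx6-2, a factor of ventral neural progenitors and oligodendrocytes, was the NK gene that fell, with -0.56 in the knockout and -0.51 in V6.5 (limma adjusted p = 0.0251). Its relative Nkx6-1, a factor of motor neuron progenitors and pancreatic beta cells, had -0.35 in the knockout and -0.06 in V6.5 without passing. Nkx2-2, which marks the most ventral progenitors, had -0.16 in the knockout and -0.06 in V6.5. Nkx2-1, the factor of ventral forebrain, thyroid and lung, had 0.01 on both arrays over 10 features. Nkx2-9, a gene of cells beside the floor plate, had 0.67 in the knockout and 0.09 in V6.5 and did not pass (limma adjusted p = 0.198). Tlx1, required for the spleen, had 0.32 in the knockout and 0.77 in V6.5 and did not pass (limma adjusted p = 0.0689). The other NK members were Tlx3 (-0.11 in the knockout and 0.08 in V6.5), Nkx2-3 (0.00 in the knockout and -0.19 in V6.5), Barx2 (-0.17 in the knockout and -0.08 in V6.5) and the skeletal factor Nkx3-2 (-0.30 in the knockout and -0.15 in V6.5). Of all these, Nkx6-2 alone passed.

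The sine oculis family split between its members, of which 2 of 4 rose (50%, against 8.93% of all genes) and 0 fell (against 7.93%). Six6, a regulator of eye and pituitary growth, had 1.05 in the knockout and 1.01 in V6.5, a mean of 1.03 ± 0.07 (moderated SE, n = 2 arrays) and the lowest adjusted p of the 54 genes (0.0105 in limma). Six4, a muscle regulator, had 0.54 in the knockout and 0.61 in V6.5 and rose too (limma adjusted p = 0.0223). Neither Six3, a gene of the anterior forebrain and eye (-0.02 in the knockout and -0.05 in V6.5), nor Six2, which maintains nephron progenitors (0.30 in the knockout and 0.08 in V6.5), passed. Six6 and Six3 are close relatives that act in the same territory, and on these arrays Six6 had a ratio about 1 log2 unit above that of Six3.

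Of the rising genes, Hmx3 and Hmx2 lie next to each other in the genome, and Six6 and Six4 near each other, per RefSeq (GRCm38.p6). Among the 54 there were 8 pairs of neighbours, with 0 protein-coding genes between them or, for Six6 and Six4, 1. Both partners rose in 2 pairs, Hmx3 with Hmx2 and Six6 with Six4. In 2 pairs 1 partner rose: Dlx4 beside Dlx3 (-0.13 in the knockout and 0.12 in V6.5), and Pdx1 beside Gsx1. Neither partner passed in the other 4, which were Dlx1 with Dlx2, Dlx6 with Dlx5, Six3 with Six2 and Nkx2-1 with Nkx2-9. In the pairs with 1 rising partner, Dlx3 and Gsx1 had ratios of opposite sign on the arrays.

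The promoters of the Hmx pair, of Six6 and of Prrx1 are shown. They belong to a pair in which both partners rose, to the gene with the lowest p and to the one that fell furthest. Six4, which rose beside Six6, is not shown. RefSeq promoter sequences of GRCm38.p6, running from 250 bases before to 50 after the start, were at hand for 41 of the 54 genes (47 starts, since some genes have several). The half-site of RA receptors was searched on both strands as AGGTCA and as its variants GGTTCA and AGTTCA and GGGTCA, together with the homeodomain core TAATTA. Capitals mark every match, on either strand, of a half-site and, for Prrx1, also of TAATTA.
Hmx3 (chr7:131542713-131543012, plus strand): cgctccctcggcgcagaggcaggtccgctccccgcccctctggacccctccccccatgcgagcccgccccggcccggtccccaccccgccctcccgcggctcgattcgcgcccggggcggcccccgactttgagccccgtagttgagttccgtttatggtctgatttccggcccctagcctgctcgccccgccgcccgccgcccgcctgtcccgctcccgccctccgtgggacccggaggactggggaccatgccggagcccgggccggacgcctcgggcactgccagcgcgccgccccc
Hmx2, first start (chr7:131548507-131548806, plus strand): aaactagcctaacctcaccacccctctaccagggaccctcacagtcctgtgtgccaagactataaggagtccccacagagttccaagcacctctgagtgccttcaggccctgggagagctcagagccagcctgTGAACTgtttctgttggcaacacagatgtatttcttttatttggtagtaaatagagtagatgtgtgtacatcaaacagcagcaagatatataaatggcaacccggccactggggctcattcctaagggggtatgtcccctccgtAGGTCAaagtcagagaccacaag
Hmx2, second start (chr7:131554043-131554342, plus strand): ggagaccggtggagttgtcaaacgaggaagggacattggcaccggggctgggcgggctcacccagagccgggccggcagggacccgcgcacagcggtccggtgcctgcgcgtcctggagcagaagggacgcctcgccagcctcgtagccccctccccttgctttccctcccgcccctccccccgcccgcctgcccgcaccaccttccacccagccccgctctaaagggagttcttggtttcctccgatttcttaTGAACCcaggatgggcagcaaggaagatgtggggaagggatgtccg
Six6 (chr12:72939632-72939931, plus strand): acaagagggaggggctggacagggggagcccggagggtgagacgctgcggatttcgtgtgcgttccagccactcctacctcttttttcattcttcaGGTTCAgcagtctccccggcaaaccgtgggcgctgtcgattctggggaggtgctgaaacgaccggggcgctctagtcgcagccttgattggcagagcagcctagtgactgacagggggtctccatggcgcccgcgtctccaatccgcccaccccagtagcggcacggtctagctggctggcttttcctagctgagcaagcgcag
Prrx1 (chr1:163313601-163313900, minus strand): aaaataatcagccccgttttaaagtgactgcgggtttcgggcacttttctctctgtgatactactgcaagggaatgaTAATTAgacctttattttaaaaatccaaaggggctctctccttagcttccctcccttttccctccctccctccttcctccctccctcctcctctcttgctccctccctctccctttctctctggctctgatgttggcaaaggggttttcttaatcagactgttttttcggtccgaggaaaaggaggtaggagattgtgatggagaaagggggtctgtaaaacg

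No half-site match stood in this window of Hmx3. The first start of Hmx2 held 2 matches, AGGTCA and AGTTCA, its second start 1 match of GGTTCA, and Six6 also 1 match of GGTTCA. In Prrx1 the capitals are the TAATTA match. Over all members, 17 of 47 promoters held at least 1 of the 4 half-sites, or 36.2%, beside 43.7% of all 32851 promoters. AGGTCA alone stood in 8.51% of member promoters and in 16.3% of all promoters, and TAATTA in 4.26% of member promoters and 5.29% of all promoters. The direct repeats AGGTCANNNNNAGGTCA and AGGTCANNAGGTCA stood in 0 member promoters and in 3 of all promoters each. Letters in this window say nothing of sites elsewhere. Member promoters were rich in CG pairs, with a median of 19 per 300 bases against 7 for all promoters, although they ranged between 2 and 50. Hmx3 had 39, Six6 had 20 and Prrx1 had 6, while the first start of Hmx2 had 2 and its second start 22.

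Among paired-class genes 2 rose and 2 fell, out of 9. That is 22.2% each way, against 8.93% of all genes up and 7.93% down. Pitx1, which gives the hindlimb its identity, had 0.94 in the knockout and 1.03 in V6.5, a mean of 0.99 ± 0.08 (moderated SE, n = 2 arrays), and rose (limma adjusted p = 0.0114). Alx1, a factor of craniofacial mesenchyme, had 0.37 in the knockout and 0.71 in V6.5 and passed narrowly (limma adjusted p = 0.0492). Prrx1, a factor of limb and facial mesenchyme, fell, with a ratio of -1.10 in the knockout, 2.14-fold lower after RA, and of -0.59 in V6.5 (limma adjusted p = 0.037). Its 2 features had -1.43 and -0.76 in the knockout and lay between -0.70 and -0.47 in V6.5, and both were lower in the knockout than in V6.5. Prrx2, its relative, had positive ratios of 0.86 in the knockout and 0.41 in V6.5 and did not pass (limma adjusted p = 0.0528). Phox2a, a factor of noradrenergic and oculomotor neurons, fell with -0.41 in the knockout and -0.81 in V6.5, and its adjusted p of 0.0483 in limma became 0.0519 when each array was centred on its median.

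Of 10 fibroblast markers 5 fell (50%, against 7.93% of all genes) and 0 rose (against 8.93%). The list had a median log2 ratio of -0.84 in the knockout and -0.59 in V6.5. Their ratios ran from -2.63 to 0.32 in the knockout and from -1.95 to 0.41 in V6.5. Col1a1 had -1.36 in the knockout and -1.24 in V6.5, and Thy1 had -1.46 in the knockout and -0.80 in V6.5. Pdgfra (0.32 in the knockout and 0.05 in V6.5) and Fap (-0.36 in the knockout and 0.28 in V6.5) did not pass. Neither did Twist2 (-0.13 in the knockout and 0.41 in V6.5), Lum (-0.08 in the knockout and -0.19 in V6.5) or Dcn (-0.05 in the knockout and -0.38 in V6.5). Prrx1 is also active in fibroblasts, and the part of such cells in its ratio was not tested. The remaining paired-class genes did not pass. They were Pitx3, of the lens and midbrain dopamine neurons (-0.41 in the knockout and -0.30 in V6.5, limma adjusted p = 0.0546), Otp, of the hypothalamus (0.24 in the knockout and -0.07 in V6.5), Shox2, of limb and heart (-0.01 in the knockout and -0.04 in V6.5), and Alx4 (-0.07 in the knockout and -0.12 in V6.5).

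LIM homeobox genes, which pair the homeodomain with protein-binding LIM domains, rose in 1 case out of 10. That is 10%, near the 8.93% of all genes, and 0 fell, against 7.93%. Lhx2, an organiser of eye and cortex, had 0.56 in the knockout and 0.46 in V6.5 (limma adjusted p = 0.0293). The lowest mean of this family was that of Lhx3, a factor of pituitary and motor neurons, with -0.69 in the knockout and -0.36 in V6.5 (limma adjusted p = 0.0522, which did not pass). Lhx4, its partner in both tissues, had ratios of the opposite sign, 0.18 in the knockout and 0.42 in V6.5, without passing. Lhx8, of cholinergic neurons and oocytes, had 0.25 in the knockout and 0.35 in V6.5 (limma adjusted p = 0.0752). Lhx1, of the head organiser and kidney, had 0.20 in the knockout and 0.05 in V6.5, Lmx1b, of limb and serotonergic neurons, -0.25 in the knockout and -0.17 in V6.5, Lhx6, of cortical interneurons, 0.13 in the knockout and -0.07 in V6.5, and Lhx9, of the gonad, -0.10 in the knockout and 0.10 in V6.5. Lmx1a and Lhx5 did not pass either.

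Dlx genes, which serve forebrain interneurons, jaw, skin and placenta, stayed near 0 apart from Dlx4. Dlx4 had 0.80 in the knockout and 0.49 in V6.5 and rose (limma adjusted p = 0.0332). It was 1 of 6 Dlx genes (16.7%, against 8.93% of all genes), and 0 fell (against 7.93%). The other 5 lay between -0.13 and 0.15 in the knockout and between -0.08 and 0.12 in V6.5, all within 1.2-fold of 1. Those of the forebrain were Dlx1 (0.02 in the knockout and -0.08 in V6.5), Dlx2 (0.15 in the knockout and 0.05 in V6.5), Dlx5 (0.08 in the knockout and -0.05 in V6.5) and Dlx6 (-0.02 in the knockout and -0.08 in V6.5).

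Of the 11 remaining genes of the ANTP class, 1 rose (9.09%, near the 8.93% of all genes) and 0 fell (against 7.93%). The 1 that rose was Pdx1, the master factor of the pancreas, with 0.43 in the knockout and 0.46 in V6.5 (limma adjusted p = 0.0338). Mnx1, a motor neuron factor, had 0.21 in the knockout and 0.17 in V6.5 (limma adjusted p = 0.168). Emx1, of the cortex, had -0.23 in the knockout and -0.25 in V6.5, Vax1, of the optic nerve, 0.47 in the knockout and 0.08 in V6.5, Gsx2, of the ventral forebrain, -0.08 in the knockout and -0.03 in V6.5, and Gbx1, of the spinal cord, -0.01 in the knockout and -0.52 in V6.5. None of these passed.

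The engrailed genes, which hold the boundary of midbrain and hindbrain, were each covered by 10 features, which gives a view of measurement spread within an array. En2 had ratios between -0.63 and -0.42 in the knockout with a median of -0.53, and between -0.29 and -0.08 in V6.5 with a median of -0.19. All 10 features of En2 were lower in the knockout, and the ranges of the arrays did not overlap. These features share their RNA and their array, so they show the precision of the ratio and not the spread between cultures, and En2 did not pass the shared test (limma adjusted p = 0.11). En1 averaged 0.15 in the knockout and 0.17 in V6.5, but its features disagreed. Of the 10, 2 stood high on both arrays, at 1.03 and 0.83 in the knockout and 0.88 and 0.73 in V6.5. The other 8 lay between -0.23 and 0.13 in the knockout and between -0.15 and 0.16 in V6.5. All are annotated to the same transcript, so the ratio of En1 depends on which feature is read.

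**Figure D2:**
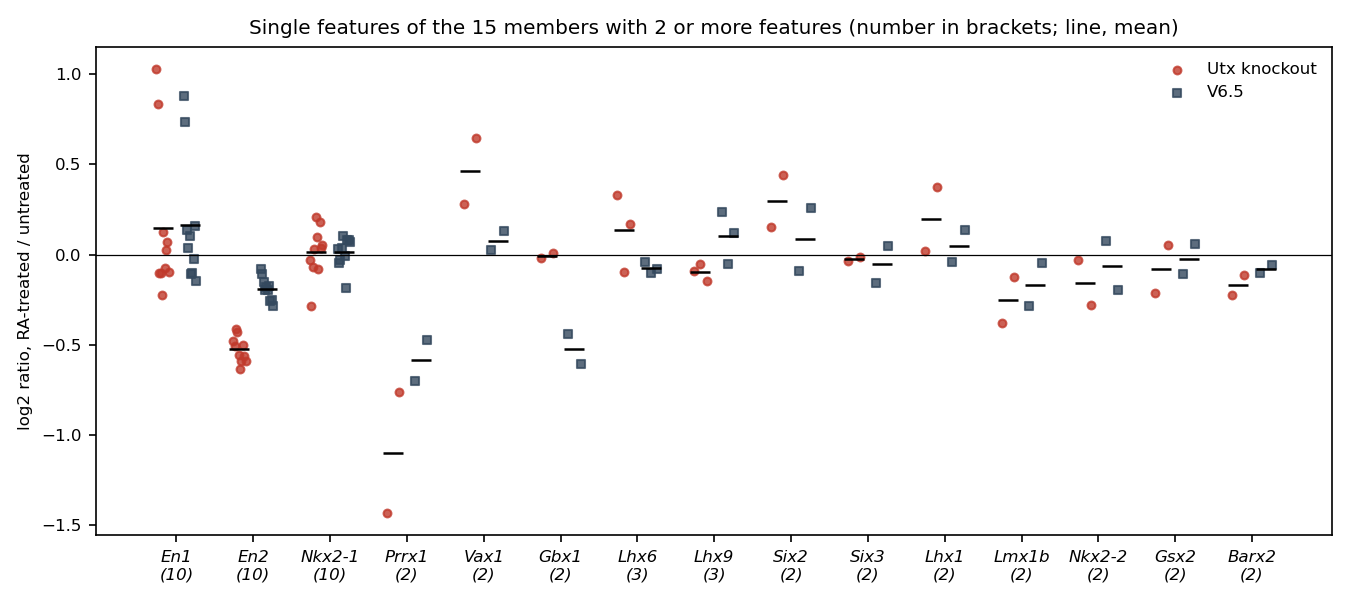
Log2 ratios, RA-treated to untreated (vertical axis), of single array features for the 15 members with 2 or more features, with circles for the Utx knockout, squares for V6.5 and a line at each mean. En1 has 2 features near 1 and 8 near 0 on both arrays, and the 10 features of En2 lie lower in the knockout than in V6.5.

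Of the 15 members with more than 1 feature, 10 had features of a single sign in the knockout and 7 in V6.5, and 5 did on both arrays. For scale, over the 5751 genes that have 2 to 9 features, the median within-gene SD was 0.14 on each array. The other 39 members rested on 1 feature, and for them no such spread exists. All 11 genes that rose are among these 39, or 28.2% of them, against 9.26% of all genes with 1 feature. Of the 15 members with more features 0 rose, against 8.06% of all such genes.

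Between the lines, none of the 54 members had a ratio at least 2-fold higher in the knockout than in V6.5, where 0.583% of all genes did. Lower by at least 2-fold were 2 members, Lmx1a and Vax2, where 0.467% of all genes were. Lmx1a, of the roof plate and midbrain dopamine neurons, had 0.09 in the knockout and 1.28 in V6.5, where it was the highest member. The difference was -1.19, so the RA ratio was 2.28-fold lower in the knockout. Vax2, which specifies the ventral eye, had -0.78 in the knockout and 0.23 in V6.5, a difference of -1.004 that became -0.9995, just short of 2-fold, when the arrays were scaled to a common spread. Both rest on 1 feature and 1 array per line, without a test.

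Lowering the bound to 1.5-fold added 3 genes, all with the higher ratio in the knockout, where 2.5% of all genes lie that far above and 1.88% that far below. Gsx1, of the hypothalamus and ventral telencephalon, had 0.66 in the knockout and -0.22 in V6.5. Emx2, of the cortex and urogenital tract, had 0.77 in the knockout and 0.03 in V6.5. Lhx5, of the hippocampus and forebrain, had 0.23 in the knockout and -0.43 in V6.5. The median difference of the members was 0.02 (knockout minus V6.5), beside 0.00 for all genes. The knockout ratio was the higher in 28 of the 54 and the lower in 26. Ratios had opposite signs on the 2 arrays in 11 members, or 20.4%, beside 24.4% of all genes.

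**Figure D3:**
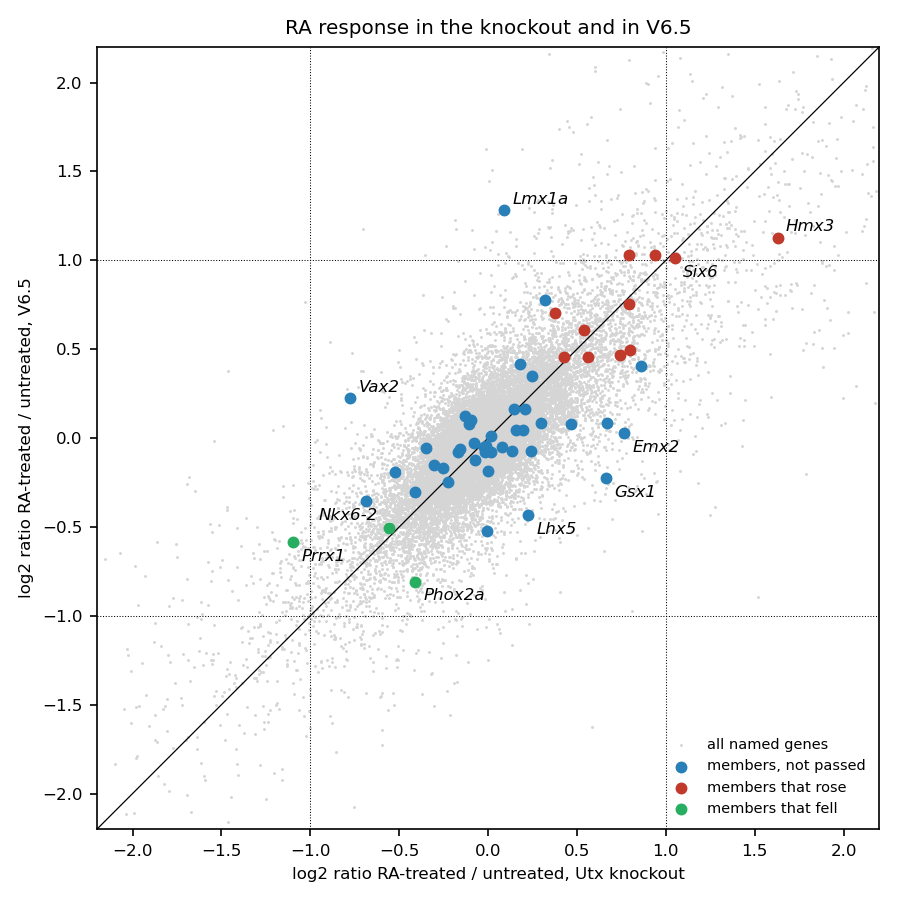
Log2 ratio, RA-treated to untreated, in the Utx knockout (horizontal axis) against V6.5 (vertical axis), 1 array each, with all named genes in grey and the 54 members coloured by the shared test. Axes end at 2.2 in either direction, so genes with larger ratios are not drawn. Lmx1a and Vax2 lie farthest above the line of equality, and Gsx1, Emx2 and Lhx5 lie below it.

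Across the 54 genes the ratios of the lines correlated with a Pearson r of 0.71 and a Spearman rho of 0.70, against 0.84 and 0.73 across all genes. Without Lmx1a and Vax2, Pearson's r across the other 52 was 0.80. These describe genes on a pair of arrays that share a platform and a dye layout, and a dye bias of a feature is alike on both.

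Other patterning homeobox genes moved both ways. Of 47 measured genes of 56 listed, 8 rose (17%, against 8.93% of all genes) and 5 fell (10.6% against 7.93%). The share that rose lay near the 20.4% of the 54 members. Irx3, of the neural plate, had 2.85 in the knockout and 1.66 in V6.5, and Msx2, a BMP-responsive gene, had 1.12 in the knockout and 1.25 in V6.5. Lbx2 (0.95 in the knockout and 0.60 in V6.5) and Dmbx1 (0.57 in the knockout and 0.95 in V6.5) rose as well. Those that fell included Otx2 (-2.24 in the knockout and -2.08 in V6.5) and Hesx1 (-1.64 in the knockout and -1.68 in V6.5). Nkx6-3 fell as well (-1.005 in the knockout and -0.97 in V6.5). Rax, of the eye field, had -1.86 in the knockout and -0.59 in V6.5 and did not pass. Meox1, of the somites, had 2.36 in the knockout and 0.20 in V6.5 and did not pass (limma adjusted p = 0.194). Of these 47 genes 2, Irx3 and Meox1, had a ratio at least 2-fold higher in the knockout than in V6.5 (0.583% of all genes did). At least 2-fold lower was 1, Rax (0.467% of all genes were).

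Genes of proteins that work with LIM and sine oculis factors rose in 5 cases out of 17 (29.4%, against 8.93% of all genes). Of these 17 genes 0 fell, against 7.93% of all genes. Eya2, a coactivator of sine oculis proteins, had 2.45 in the knockout and 1.81 in V6.5, and its relative Eya1 had 0.43 in the knockout and 0.47 in V6.5. Sobp, a sine oculis-binding protein, had 1.16 in the knockout and 0.94 in V6.5. The LIM-only proteins Lmo2 (0.94 in the knockout and 0.71 in V6.5) and Lmo4 (0.44 in the knockout and 0.44 in V6.5), which share partners with LIM homeobox factors, rose too. Dach1, of the Eya network, had 1.89 in the knockout and 0.40 in V6.5 and did not pass (limma adjusted p = 0.123). Ssbp3, which stabilises LIM complexes, had 1.34 in the knockout and 0.56 in V6.5 (limma adjusted p = 0.0556). The Groucho family, some of whose proteins are corepressors recruited by homeodomain proteins, had 6 measured genes. Among them Tle6 rose (0.77 in the knockout and 0.99 in V6.5) and Tle3 fell (-0.91 in the knockout and -0.61 in V6.5). That is 16.7% each way, against 8.93% of all genes up and 7.93% down.

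Hedgehog signalling induces Nkx2-2 and Nkx6-1 and restricts dorsal genes in the neural tube. Of its 16 measured genes 4 rose (25%, against 8.93% of all genes) and 2 fell (12.5% against 7.93%). The transcription factors Gli1 (-1.11 in the knockout and -0.96 in V6.5) and Gli2 (-1.06 in the knockout and -1.35 in V6.5) fell. Ptch1, also of the pathway, had -0.30 in the knockout and -0.15 in V6.5 and did not pass (limma adjusted p = 0.145). Whether the activity of the pathway changed was not tested. Gli3, mainly a repressor, rose (0.75 in the knockout and 0.74 in V6.5), as did the ligand Dhh (0.62 in the knockout and 0.91 in V6.5), the transducer Smo (0.57 in the knockout and 0.40 in V6.5) and the antagonist Hhip (0.40 in the knockout and 0.75 in V6.5). Boc, a coreceptor, had 1.13 in the knockout and 0.51 in V6.5 (limma adjusted p = 0.0507).

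Markers of the cell types that these cultures could hold gave a mixed background to the homeobox genes. Of all genes 8.93% rose and 7.93% fell. In the neural progenitor list 20% rose and 20% fell, in the neuron list 10% and 40%, and in the neural crest list 22.2% and 11.1%. The mesoderm list had 0% and 9.09%, the endoderm list 11.1% and 0%, and the trophoblast list 20% and 0%. Among 10 neural progenitor markers 2 rose, Sox3 (2.12 in the knockout and 1.96 in V6.5) and Zic1 (0.43 in the knockout and 0.39 in V6.5), and 2 fell, Olig2 (-1.79 in the knockout and -0.95 in V6.5) and Olig1 (-1.32 in the knockout and -0.65 in V6.5). Neuron markers fell in 4 of 10 cases, Neurod1, Stmn2, Elavl3 and Tubb3, while Neurog2 rose (0.81 in the knockout and 0.53 in V6.5). In the neural crest list Sox10 (1.13 in the knockout and 0.99 in V6.5) and Ets1 (1.07 in the knockout and 0.72 in V6.5) rose and Foxd3 (-2.91 in the knockout and -1.45 in V6.5) fell, out of 9. Of 11 mesoderm markers 0 rose and Tbx6 fell (-0.67 in the knockout and -0.48 in V6.5). Of 9 endoderm markers Foxa1 rose (3.13 in the knockout and 3.09 in V6.5), and of 10 trophoblast markers Gata3 (2.97 in the knockout and 2.15 in V6.5) and Tfap2c (1.09 in the knockout and 0.86 in V6.5) did. The part of such cells in the homeobox ratios was not tested.

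**Figure D4:**
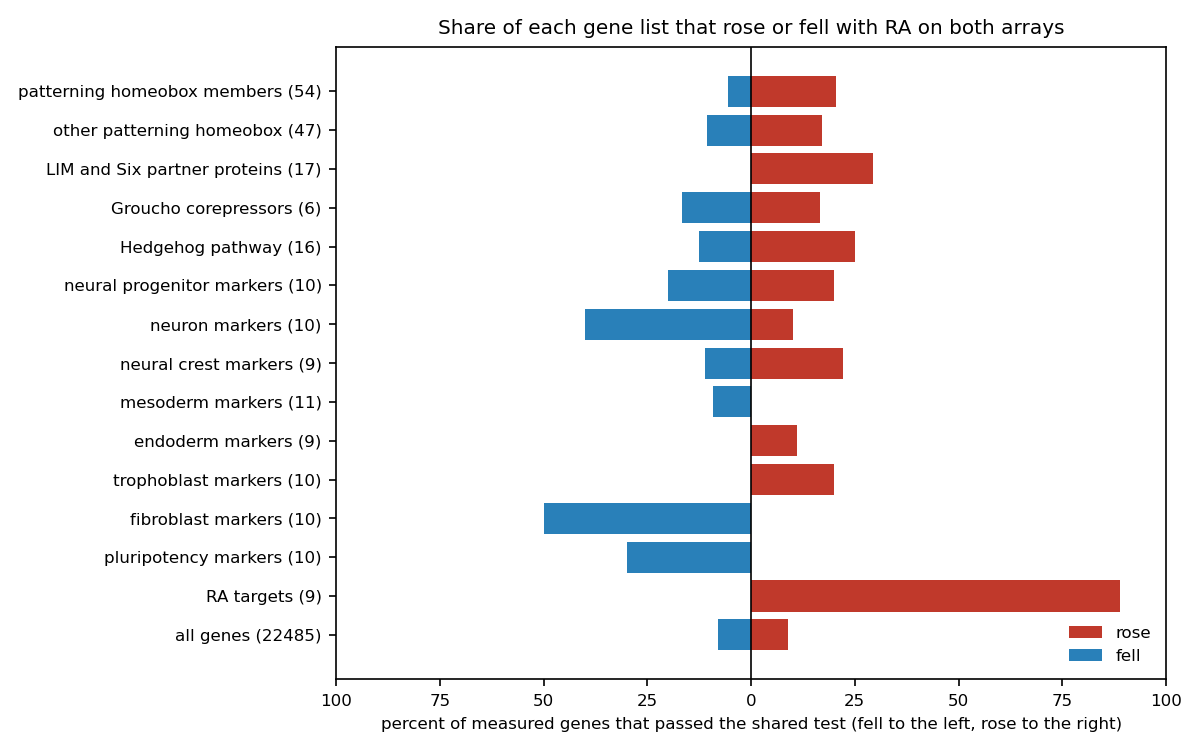
Share of the measured genes of each list (number in brackets) that rose, to the right, or fell, to the left, in limma's test of both arrays, in percent. The 54 patterning genes reach 20.4% to the right and 5.56% to the left, beside 8.93% and 7.93% of all genes, and RA targets reach 88.9%.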

How the data were processed

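Total RNA was labelled by oligo-dT primed cRNA synthesis and hybridised to 2 dual-colour Agilent arrays, 1 for each line, per the labels' protocols. The authors deposited log2 ratios of 44397 features, with 1 value on each array. Per the submitters' processing notes limma was used, without version or role; for background correction, within-array normalization and genome build, the entry is: not given in the sources used here. As the mean of either column is 0, the authors' values had been centred per array. The log base was inferred from the largest value, 5.86. The direction, RA-treated over untreated, is a likely reading from the dyes. Without a dye swap, a dye bias at a feature adds to the ratio on both arrays. The lines' labels give 1 sample each.

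Features were named through the platform annotation (33026 with 1 symbol, 0 with several, 11371 with none), and the features of a gene were averaged. For the shared response, limma 3.58.1 ran in R 4.3.3 (lmFit and eBayes, intercept over both arrays, two-sided, 1 residual and 2.98 prior degrees of freedom), with p-values adjusted by Benjamini-Hochberg over 22485 genes. Differences between lines had no test. This fit was also run on simulated ratios. They held no dye bias shared by both arrays, so that run does not bear on such a bias. Other steps used Python 3.11.15 (matplotlib 3.10.9, numpy 2.4.6, pandas 2.3.3). Promoters came from RefSeq (GRCm38.p6).

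The members, the 13 companion lists and the families were chosen with earlier results of these data known. The rule for members described singly took those past the shared threshold, past 2-fold on either array, or past 1.5-fold between lines, and each family's extremes; the others are given by family. The alternatives were the median over features, the feature with the largest ratio, median centring, scaling of the array spread, robust eBayes, treat, a fit on features, genes with 2 or more features alone, and 1.5-fold in place of 2-fold. In the fit on features, the feature with the lowest p stood for its gene.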

Additional observations from a re-analysis of the deposited data

Results flagged for a closer look

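Lhx5, Gsx1 and Vax2 had ratios of opposite sign on the arrays and differed by at least 1.5-fold between the lines. With 1 array per line this difference was not tested. Vax2 had -0.78 in the knockout and 0.23 in V6.5, a difference of -1.004 on the log2 scale (knockout minus V6.5). Gsx1 had 0.66 in the knockout and -0.22 in V6.5, a difference of 0.89. Lhx5 had 0.23 in the knockout and -0.43 in V6.5, a difference of 0.66.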

How the results depend on the processing

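The 11 genes that rose and the 3 that fell kept their call under the median over features, a common array spread and robust eBayes. Median centring gave 12 and 2, with Prrx2 gained and Phox2a lost. Both the feature with the largest ratio and the fit on features gave 13 and 4, with En1, Prrx2 and Lhx3 gained. These 2 settings keep 1 feature per gene, picked by the size of its mean ratio or by its lowest p, so they favour calls. En1 was gained through 1 feature (mean 0.95) of its 10, of which 8 lay near 0. Shares of all genes under the refits are given here for treat alone, so the other counts have no background beside them. Treat against 1.5-fold gave 0 members up and 0 down, where 0.872% of all genes rose and 0.431% fell. Testing only genes with 2 or more features left 15 members, of which 0 rose and 1 fell (Prrx1), since the other called genes have 1 feature. With 1.5-fold in place of 2-fold, 11 members were higher after RA (7.28% of all genes were) and 3 lower (5.06%) in the knockout, and 9 higher (6.69%) and 2 lower (5.36%) in V6.5, while 3 had a higher and 2 a lower ratio in the knockout than in V6.5. With a common array spread 1 member, in place of 2, had a ratio at least 2-fold lower in the knockout than in V6.5, since the difference of Vax2 became -0.9995. Leaving out an array would leave 0 residual degrees of freedom, so each array's own ratios stand in its place. No paired analysis was possible because each line has 1 array. Signal over background is unknown.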
